A study of Mus musculus with 14 samples.

Results

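The smooth muscle contractile genes examined here were Acta2, Tagln, Myh11, Cnn1, Des, Actg2, Smtn, Lmod1, Tpm2 and Mylk, chosen by gene symbol because their proteins build or drive the contractile apparatus of smooth muscle. All 10 were found among the 24411 genes of the count tables, and all 10 were among the 14300 genes that passed the filter on low counts. They were measured by RNA sequencing of total RNA from whole kidneys of male C57/B6 mice aged 8 weeks, in 14 libraries. The kidneys were taken at day 0 (n = 4), at day 1 (n = 5) and at day 3 (n = 5) after renal ischemia/reperfusion injury (IRI), in which blood flow to the kidney is stopped and then restored, a model of acute kidney injury (AKI). No transgene, deletion or drug is named for any of the 3 groups, and it is not stated whether the day 0 mice had a sham operation. The labels give 1 library per replicate number but do not say that each came from a separate mouse, so the p-values measure the spread between these samples.

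Smooth muscle shortens when calcium and calmodulin switch on myosin light chain kinase, which lets smooth muscle myosin pull on actin filaments carrying tropomyosin and calponin. In the kidney these genes are active in the muscle coat of arteries and arterioles and in the muscle under the urothelium of the renal pelvis. Some of them are also used elsewhere: Acta2 encodes α-smooth muscle actin (α-SMA), the usual marker of myofibroblasts, and Des encodes desmin, found in podocytes and mesangial cells as well as in muscle. Myh11 (smooth muscle myosin heavy chain), Cnn1 (calponin 1) and Lmod1 (leiomodin 1, an actin filament nucleator) are largely restricted to smooth muscle, which is why Acta2 was set against those 3 genes. In GENCODE vM21 (GRCm38), Acta2 (ENSMUSG00000035783.9) lies at chr19:34241090-34255590 on the minus strand, Tagln at chr9:45929619-45936058 (minus), Myh11 at chr16:14194535-14291372 (minus), Cnn1 at chr9:22099216-22109630 (plus) and Lmod1 at chr1:135324807-135368065 (plus). Des lies at chr1:75360329-75368579 (plus), Actg2 at chr6:83512905-83536265 (minus), Smtn at chr11:3517523-3540612 (minus), Tpm2 at chr4:43514711-43523765 (minus) and Mylk at chr16:34745210-35002420 (plus).

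Several of these genes are known targets of serum response factor, which binds a sequence called the CArG box, so the RefSeq promoter windows (GRCm38.p6, 250 bases before to 50 after the start) were searched on both strands. The windows held 7 of the 10 genes, all but Tagln, Myh11 and Actg2. For Acta2, Smtn and Mylk the RefSeq start lies inside the GENCODE span given above, and so do the stretches shown for them. None of the 7 windows held a CArG box without mismatch, as against 1.63% of all 32851 windows. With up to 1 mismatch in its central A/T run it was present in 9.98% of all windows, and among the 7 only in that of Acta2, which held 2. These are shown because Acta2 is the gene on which the comparison turns; capitals mark the box.
Acta2, chr19:34255438-34255467, minus strand, box 84 bases before the start: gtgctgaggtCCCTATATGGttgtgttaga
Acta2, chr19:34255388-34255417, minus strand, box 34 bases before the start: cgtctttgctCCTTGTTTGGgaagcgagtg

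The letters CATTCC, the core recognised by TEAD factors, were searched on both strands after the sequences had been looked at. They were in 14.7% of all windows and in 4 of the 7 member windows, and do not overlap the CArG matches. They are shown because the 4 genes, Acta2, Smtn, Lmod1 and Mylk, behaved differently from each other; capitals mark these letters or their reverse complement.
Acta2, chr19:34255502-34255531, minus strand: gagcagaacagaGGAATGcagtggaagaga
Smtn, chr11:3539497-3539526, minus strand: cggtttgtggcaCATTCCggactttggctt
Mylk, chr16:34784780-34784809, plus strand: tgcagttcagaaCATTCCctggtacgtgca
For the muscle-restricted comparison genes, the whole window upstream of the annotated gene start is shown, with 244 bases for Lmod1 and 213 for Cnn1, in which the same letters were found once and not at all.
Lmod1, chr1:135324563-135324806, plus strand: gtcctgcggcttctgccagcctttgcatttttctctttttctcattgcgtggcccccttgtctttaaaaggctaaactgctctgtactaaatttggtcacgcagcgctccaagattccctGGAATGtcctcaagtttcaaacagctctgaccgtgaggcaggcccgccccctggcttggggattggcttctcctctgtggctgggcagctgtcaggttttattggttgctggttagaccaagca
Cnn1, chr9:22099003-22099215, plus strand: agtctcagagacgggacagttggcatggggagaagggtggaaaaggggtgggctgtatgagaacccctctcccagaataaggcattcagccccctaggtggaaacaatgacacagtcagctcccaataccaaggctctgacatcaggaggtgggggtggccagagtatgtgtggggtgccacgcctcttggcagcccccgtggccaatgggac
A match is a description of these windows only.

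The libraries held between 12485579 and 20476979 reads assigned to genes. Levels are given as CPM, read counts relative to library size after scaling by the trimmed mean of M values (TMM). The kidney genes Umod (1865 to 6567 CPM), Aqp2 (87.0 to 655 CPM) and Nphs1 (5.66 to 32.6 CPM) were present in every library. The library names carry a number of 1 digit (all 4 day 0 libraries, 3 of day 1 and 2 of day 3) or of 3 digits (2 of day 1 and 3 of day 3). Since the meaning of this format is not stated, it was handled as if it might mark a batch. 3 libraries, 1 of each day, stood out by the summed CPM of 8 urothelium genes (Upk1a, Upk1b, Upk2, Upk3a, Krt5, Krt15, Trp63 and Psca): day 0 replicate 4 at 83.8, day 1 replicate 2 at 124.8 and day 3 replicate 4 at 53.7, against 3.94 to 21.0 in the other 11. Results for these genes are therefore given with and without those 3 libraries where they change.

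**Figure D1:**
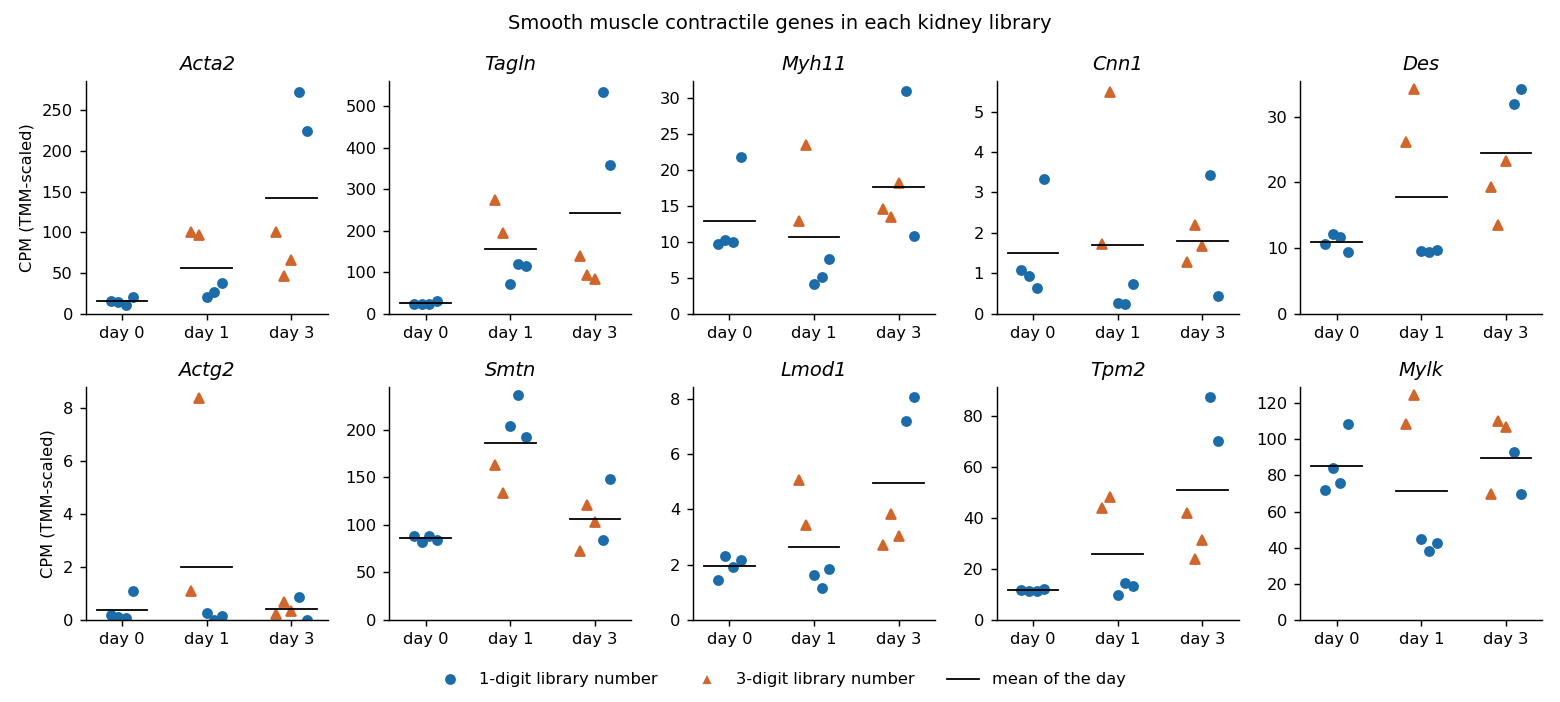
TMM-scaled CPM of each gene (linear axes, starting at 0) in every library by day; circles are libraries with a 1-digit number, triangles those with a 3-digit number, and lines are the means of each day. Acta2 and Tagln stand above day 0 at day 3 in all 5 libraries, while Myh11 and Cnn1 overlap with day 0 on both later days.

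At day 0 the most abundant member per length was Smtn (smoothelin, a cytoskeletal protein of contractile cells) with 19.6 ± 0.648 CPM per kb of exon (mean ± SD, n = 4), followed by Tagln (transgelin, SM22α, an actin-binding protein) with 12.5 ± 1.91. Mylk (myosin light chain kinase) with 7.57 ± 1.47 CPM per kb and Acta2 with 6.82 ± 1.89 overlapped with each other. Tpm2 (β-tropomyosin) followed with 4.01 ± 0.152 CPM per kb, above Des with 2.90 ± 0.328 and Myh11 with 1.71 ± 0.783, which overlapped. Cnn1 with 0.548 ± 0.451 CPM per kb, Lmod1 with 0.494 ± 0.0965 and Actg2 (γ-smooth muscle actin, the actin of visceral muscle) with 0.232 ± 0.313 came last, each overlapping with its neighbour in the order. In which cells the Smtn and Mylk reads arose was not tested. At day 3 the order was led by Tagln with 122 ± 99.8 and Acta2 with 64.6 ± 45.8 CPM per kb (n = 5), and every neighbouring pair overlapped.

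The first question was whether these genes changed after IRI. In edgeR's quasi-likelihood test over all genes with Benjamini-Hochberg adjustment, 3 of the 10 rose at day 1 (Acta2, Tagln and Smtn), where 23.3% of all genes tested rose and 42.1% changed either way. At day 3, 5 of the 10 rose (Acta2, Tagln, Des, Lmod1 and Tpm2), where 19.5% of all genes rose and 33.3% changed. Groups did not overlap for 2 of the 10 at day 1 (21.5% of all genes lay wholly above day 0) and for 5 at day 3 (16.9%). None of the 10 was lower than day 0 on either day in this test, also at an unadjusted p under 0.05. Between day 1 and day 3, 1 gene, Smtn, fell, where 7.39% of all genes fell and 15.9% changed. Myh11, Cnn1, Actg2 and Mylk passed the threshold in none of these 3 comparisons over all libraries. With whole tissue, fewer cells of a type and less RNA per cell cannot be told apart.

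Of the thin filament genes, Acta2 stood at 15.1, 14.1, 10.3 and 20.4 CPM in the day 0 libraries. At day 1 it stood at 100.01, 96.8, 20.2, 26.5 and 37.6 CPM, and at day 3 at 100.2, 46.7, 65.4, 272.6 and 224.0 CPM. The highest day 0 library lay just above the lowest day 1 library, so these groups overlapped, whereas all day 3 libraries lay above day 0. The fitted change was 3.76-fold at day 1 (log2 1.91, SE 0.585, adjusted p = 0.0179, edgeR) and 9.46-fold at day 3 (log2 3.24, SE 0.620, adjusted p = 0.00169). Without day 0 replicate 3 the day 1 change gave adjusted p = 0.0541. Day 3 against day 1 did not pass (log2 1.33, adjusted p = 0.0965), although it did without day 1 replicate 2 (adjusted p = 0.0496), in DESeq2 (adjusted p = 0.0407) and in the 1-digit libraries, while in the 3-digit libraries the value was -0.47 (adjusted p = 0.337). With 1 day 1 library left out, this comparison also passed for Myh11, Tpm2 and Lmod1 (adjusted p = 0.038, 0.0471 and 0.0469, edgeR).

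Tagln moved with Acta2. It stood at 23.8, 22.9, 22.2 and 30.5 CPM at day 0, at 274.0, 194.2, 71.6, 120.7 and 116.0 CPM at day 1, and at 139.9, 92.9, 83.4, 535.4 and 359.1 CPM at day 3. All libraries of both later days lay above day 0. The change was 6.25-fold at day 1 (log2 2.64, SE 0.557, adjusted p = 0.00227, edgeR) and 9.74-fold at day 3 (log2 3.28, SE 0.574, adjusted p = 0.000986), and it kept its call with any 1 library left out. Of the annotated Tagln transcripts, 58.3% of all 50-base stretches are shared with the genes Pcsk7 and Gm48529 on the opposite strand; the strand-specific counts were used here, and the other strand held 25 to 54 reads beside 352 to 504 counted for Tagln in the day 0 libraries, and 23 to 45 beside 1050 to 7961 in the later ones.

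Tpm2 stood at 11.2 to 12.3 CPM in all 4 day 0 libraries. At day 1 it was 43.9 and 48.3 CPM in replicates 1 and 2 but 9.81, 14.6 and 13.4 CPM in the other 3, and at day 3 it was 41.9, 23.9, 31.2, 87.6 and 70.2 CPM. Day 1 therefore fell into a high pair and 3 libraries near day 0, and all of day 3 lay above day 0. The day 3 change was 4.37-fold (log2 2.13, SE 0.502, adjusted p = 0.00594, edgeR), and the day 1 value was log2 1.16 (adjusted p = 0.0671), which passed in DESeq2 (adjusted p = 0.0326), without day 1 replicate 3 (adjusted p = 0.0303) and in the 3-digit libraries. Lmod1 stood at 1.44, 2.30, 1.90 and 2.18 CPM at day 0, at 5.07, 3.45, 1.64, 1.14 and 1.85 CPM at day 1, and at 2.70, 3.83, 3.02, 7.20 and 8.08 CPM at day 3. It rose 2.53-fold at day 3 (log2 1.34, SE 0.459, adjusted p = 0.0368), with all day 3 libraries above day 0. That call was lost (adjusted p up to 0.102) when any 1 of the day 0 libraries, or day 3 replicate 4 or 5, was left out, in the 3-digit libraries against day 0 (adjusted p = 0.0527), and without the 3 libraries high in urothelium genes (adjusted p = 0.127).

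Cnn1, whose product holds actomyosin in check, stood at 1.09, 0.942, 0.632 and 3.33 CPM at day 0, at 1.72, 5.50, 0.273, 0.229 and 0.724 CPM at day 1, and at 1.27, 2.20, 1.68, 3.43 and 0.441 CPM at day 3. The 3 days overlapped, and the highest library of each day was the one highest in urothelium genes. The change was log2 0.20 at day 1 (95% interval -1.41 to 1.82) and 0.27 at day 3 (-1.35 to 1.89), so that rises or falls of over 2-fold could not be told from no change. Actg2 was at the limit of detection, with 0 to 184 reads per library. It stood at 0.0632 to 1.09 CPM at day 0, at 8.36 and 1.08 CPM in day 1 replicates 2 and 1, at 0 to 0.273 CPM in the other 3 day 1 libraries, and at 0 to 0.874 CPM at day 3. The groups overlapped, and its change was log2 2.46 at day 1 (adjusted p = 0.140, edgeR) and 0.22 at day 3 (adjusted p = 0.913).

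Of the thick filament and its regulators, Myh11 stood at 9.72, 10.2, 10.04 and 21.9 CPM at day 0, at 12.9, 23.5, 4.16, 5.14 and 7.56 CPM at day 1, and at 14.6, 13.4, 18.2, 31.1 and 10.8 CPM at day 3. The 3 days overlapped, and again the highest library of each day was the one highest in urothelium genes. The change was log2 -0.28 at day 1 (95% interval -1.20 to 0.64, adjusted p = 0.654, edgeR) and 0.44 at day 3 (-0.48 to 1.37, adjusted p = 0.488). From day 1 to day 3 Myh11 gave log2 0.72 (adjusted p = 0.282, edgeR), and 1.24 without day 1 replicate 2 (adjusted p = 0.038). Mylk stood at 72.0, 84.3, 75.8 and 108.8 CPM at day 0, at 108.3, 124.6, 44.6, 37.9 and 42.3 CPM at day 1, and at 69.5, 109.9, 107.0, 93.1 and 69.8 CPM at day 3. Its change was log2 -0.25 at day 1 (95% interval -0.90 to 0.40) and 0.08 at day 3 (-0.58 to 0.73), and the days overlapped. With number format as a term in the fit, Mylk was lower at day 1 by log2 -0.75 (adjusted p = 0.0290, edgeR).

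Of the cytoskeletal members, Des stood at 10.5, 12.1, 11.6 and 9.31 CPM at day 0, at 26.2, 34.2, 9.54, 9.32 and 9.73 CPM at day 1, and at 19.3, 13.5, 23.2, 31.9 and 34.2 CPM at day 3. As for Tpm2, day 1 split into a high pair and 3 libraries at the day 0 level, and all day 3 libraries lay above day 0. The day 3 change was 2.24-fold (log2 1.16, SE 0.405, adjusted p = 0.0391, edgeR). It was lost (adjusted p up to 0.0929) when any 1 of the day 0 libraries or day 3 replicate 3, 4 or 5 was left out, without the 3 libraries high in urothelium genes (adjusted p = 0.0994), and with number format as a term (adjusted p = 0.0653).

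Smtn had its own course. It stood at 88.4, 82.3, 87.6 and 84.4 CPM at day 0, at 163.0, 133.0, 203.3, 236.3 and 191.7 CPM at day 1, and at 72.0, 120.6, 103.0, 83.8 and 148.4 CPM at day 3. All day 1 libraries lay above day 0, and day 3 overlapped with both. It rose 2.16-fold at day 1 (log2 1.11, SE 0.206, adjusted p = 0.00102, edgeR) and then fell by 0.81 on the log2 scale from day 1 to day 3 (SE 0.191, adjusted p = 0.0134). That fall missed the threshold in a fit of these 2 days alone (-0.82, adjusted p = 0.050), and also among 3-digit libraries (-0.59, adjusted p = 0.108). At day 3 it was log2 0.30 from day 0 (adjusted p = 0.262), and with number format as a term 0.52 (adjusted p = 0.0491).

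**Figure D2:**
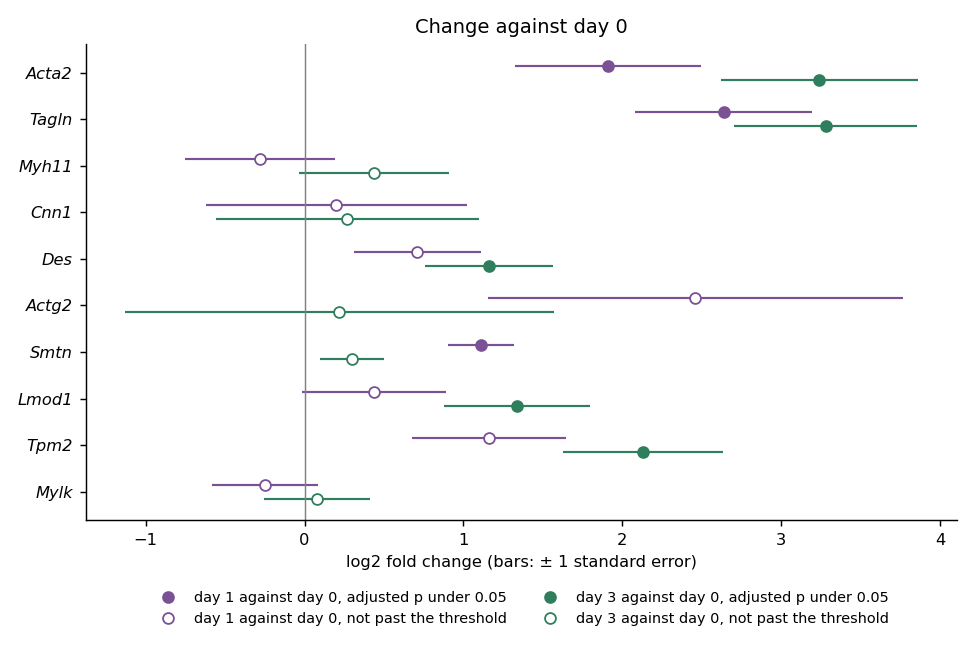
Fitted log2 fold change of each gene against day 0 at day 1 and day 3 (bars, ± 1 standard error; filled points, adjusted p under 0.05 in edgeR). Acta2 and Tagln lie furthest to the right at day 3 (3.24 and 3.28), Smtn is filled only at day 1, and Myh11, Cnn1 and Mylk lie near 0.

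Across the 14 libraries the 10 genes did not vary as 1 unit. Pearson's r of log2 CPM was 0.97 between Acta2 and Tpm2, 0.93 between Acta2 and Tagln, 0.88 between Acta2 and Des and 0.85 between Acta2 and Lmod1. Another set of high values joined Myh11, Cnn1 and Mylk (0.91 for Myh11 with Cnn1, 0.84 for Myh11 with Mylk, 0.86 for Cnn1 with Mylk), while Acta2 with Myh11 gave 0.53 and Acta2 with Cnn1 0.37. Smtn gave negative values with this set, with -0.64 for Myh11 and -0.57 for Mylk. These values describe libraries that share day and number format, and carry no test.

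Of all 14299 other genes tested, those most like Acta2 over the 14 libraries were Col12a1 (r = 0.974), Tpm2 (0.970), Tbcd (0.962), Mmp7 (0.960) and Acsbg1 (0.959). Tagln came 29th and Myh11 only 2883rd. Those most like Myh11 were Adh7 (r = 0.951), Gm13157 (0.938), Ksr1 (0.921), Cnn1 (0.914) and Nova1 (0.912), with Acta2 in place 2001.

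The second question was whether Acta2 kept step with the genes largely restricted to smooth muscle. For this the log2 CPM of Myh11, Cnn1 or Lmod1 was subtracted from that of Acta2 in the same library. Acta2 minus Myh11 was 0.63, 0.46, 0.04 and -0.10 at day 0. It was 2.95, 2.04, 2.25, 2.34 and 2.29 at day 1, and 2.77, 1.79, 1.84, 3.13 and 4.36 at day 3. Every library of the later days lay above every day 0 library. The mean went from 0.25 ± 0.34 (SD, n = 4) to 2.37 ± 0.34 (n = 5) at day 1 and 2.78 ± 1.06 (n = 5) at day 3. The difference of 2.12 at day 1 and 2.52 at day 3 had p = 0.00794 each in an exact two-sided permutation test, the smallest this design can give, and adjusted p = 0.0238 over the 9 tests.

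Acta2 minus Cnn1 had a mean of 3.44 ± 0.58 at day 0, 5.46 ± 0.81 at day 1 and 6.12 ± 1.62 at day 3. Acta2 minus Lmod1 had a mean of 2.84 ± 0.45 at day 0, 4.25 ± 0.45 at day 1 and 4.62 ± 0.68 at day 3. For both genes all later libraries again lay above day 0. The shifts were 2.02 and 2.68 log2 units for Cnn1 and 1.40 and 1.78 for Lmod1 at day 1 and day 3, with p = 0.0159 and adjusted p = 0.0238 each in the exact permutation test. Without day 0 replicate 3 or 4, all 6 shifts from day 0, those against Myh11 included, had adjusted p = 0.0536. The same value was reached without day 0 replicate 1 for Cnn1 at day 3, and without day 0 replicate 2 for Cnn1 and Lmod1 at day 3. Lmod1 itself rose at day 3, so that its difference to Acta2 widened with both genes rising. Between day 1 and day 3 no pair passed the test (0.41, 0.66 and 0.37 log2 units, adjusted p = 0.484, 0.484 and 0.378, exact permutation test). Since Acta2 enters every difference and day 0 enters both shifts, these are not independent of each other.

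**Figure D3:**
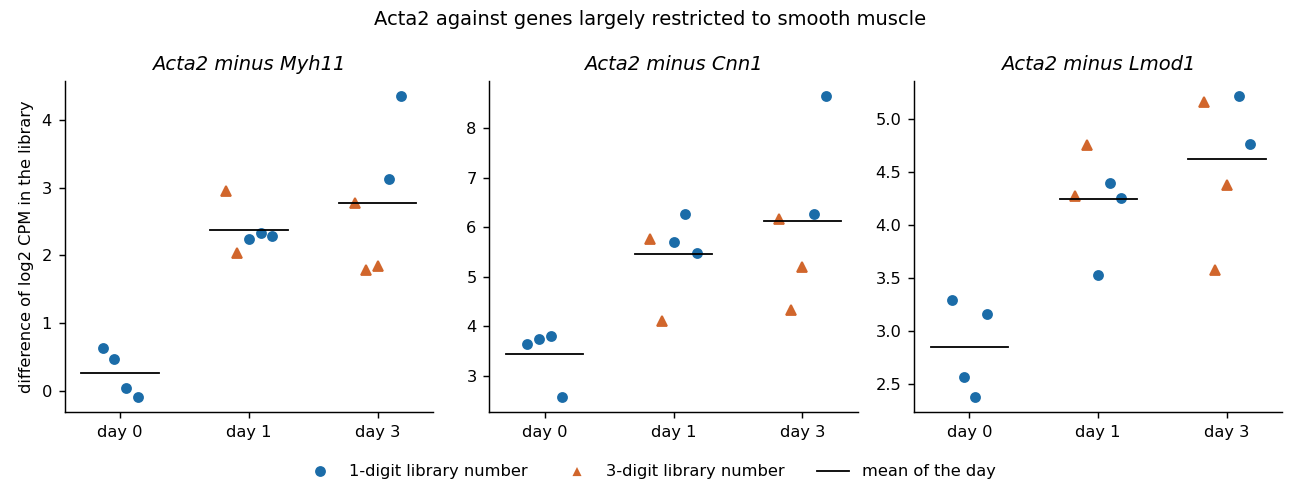
Difference of log2 CPM between Acta2 and Myh11, Cnn1 or Lmod1 in each library by day; circles are 1-digit and triangles 3-digit library numbers, lines are means. In each panel every day 1 and day 3 library lies above every day 0 library.

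The sizes of these shifts within each number format are given against the same day 0 libraries. Acta2 minus Myh11 was higher than day 0 by 2.04 log2 units in the 1-digit and 2.24 in the 3-digit libraries of day 1, and by 3.49 and 1.88 at day 3. With Cnn1 the values were 2.37 and 1.49 at day 1 and 4.01 and 1.79 at day 3, and with Lmod1 1.22 and 1.67 at day 1 and 2.15 and 1.52 at day 3. That these groups did not overlap follows from all libraries together. With 2 or 3 libraries against 4 the smallest p of the exact permutation test is 0.0667 or 0.0286, and none passed after adjustment. Without the 3 libraries high in urothelium genes the shifts were 2.08 and 2.32 for Myh11, 2.07 and 2.36 for Cnn1 and 1.38 and 1.73 for Lmod1, with adjusted p of 0.0643 to 0.0857 in groups of 3 and 4.

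The third question was how the number format of the libraries bore on these genes. In edgeR, fitted over the 5 combinations of day and number format, 9 of the 10 stood higher at day 1 in libraries with a 3-digit number than in those with a 1-digit number, where 18.6% of all genes were higher and 35.0% differed. Acta2 was higher by log2 1.81 (SE 0.317, adjusted p = 0.00130), Tpm2 by 1.87 (adjusted p = 0.000160), Des by 1.66 (adjusted p = 0.000234) and Mylk by 1.48 (adjusted p = 0.000500). Cnn1 was higher by 3.18 and Actg2 by 5.04, on 17 and 6 reads in all in the 1-digit libraries. Smtn alone was lower, by 0.51 (adjusted p = 0.109). Without day 1 replicate 2, the library highest in urothelium genes, 6 of the 10 remained, and Myh11, Cnn1 and Actg2 were lost (adjusted p = 0.155, 0.181 and 0.193). Tagln (1.19) was lost without day 1 replicate 1 (adjusted p = 0.0624), and Cnn1 without day 1 replicate 4 as well.

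At day 3 the order was turned round. Of the 10, 5 were lower in the 3-digit libraries, where 8.22% of all genes were lower and 18.5% differed. They were the same 5 genes that rose at day 3: Acta2 by -1.81 (SE 0.313, adjusted p = 0.00520), Tagln by -2.09 (adjusted p = 0.00163), Tpm2 by -1.29 (adjusted p = 0.00388), Lmod1 by -1.26 (adjusted p = 0.0152) and Des by -0.82 (adjusted p = 0.0182), all log2. For these 5 the 2 formats did not overlap, which held in either direction for 41.4% of all genes. Lmod1 and Des were lost without day 3 replicate 5, where 1 library stood for the 1-digit format and was taken to vary like the others. Myh11 (-0.44, adjusted p = 0.492), Cnn1 (-0.19) and Mylk (0.23) overlapped between the formats.

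The difference between these 2 format differences was itself tested and passed for 7 of the 10, all lower (8.45% of all genes were lower and 17.6% differed): Acta2 (-3.62), Tagln (-3.27), Tpm2 (-3.16), Lmod1 (-2.73), Des (-2.49), Myh11 (-2.15) and Mylk (-1.25). Cnn1 (-3.37) and Actg2 (-5.18) did not pass in edgeR (adjusted p = 0.0662 and 0.0758) but did in DESeq2 (adjusted p = 0.0339 and 0.0386). Among the 7, the highest adjusted p in edgeR was 0.0340, for Myh11. Myh11 lost this call when any 1 of day 1 replicates 2, 3 and 4 or day 3 replicates 2 and 4 was left out (adjusted p up to 0.207), and Mylk without day 1 replicate 2 or day 3 replicate 4 (up to 0.0552).

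**Figure D4:**
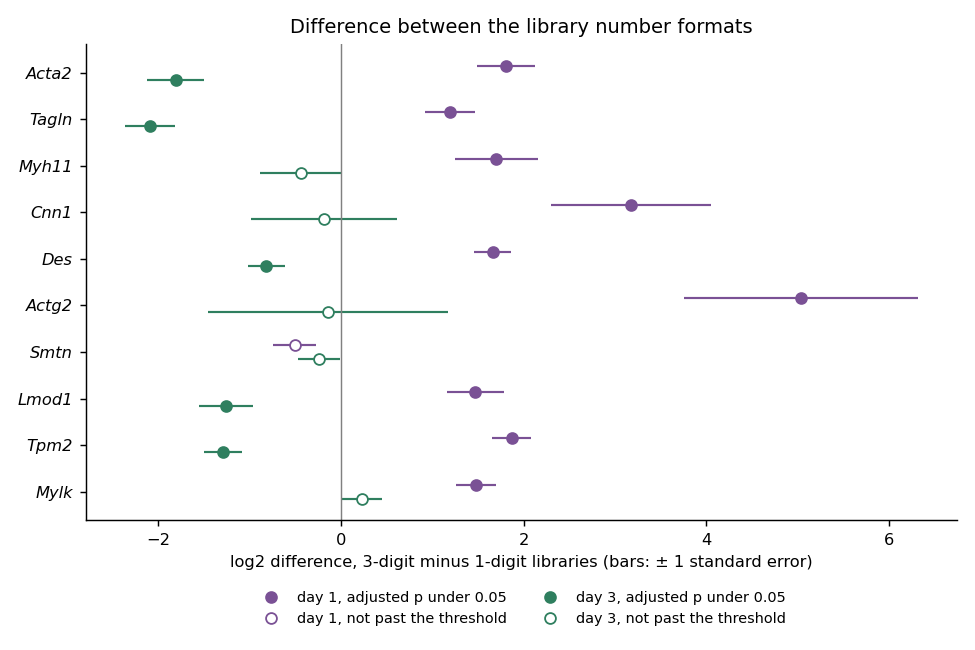
Fitted log2 difference between 3-digit and 1-digit libraries for each gene at day 1 and at day 3 (bars, ± 1 standard error; filled points, adjusted p under 0.05 in edgeR). At day 1 all genes but Smtn lie right of 0, and at day 3 all genes but Mylk lie left of 0, with Acta2, Tagln, Des, Lmod1 and Tpm2 filled.

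The course after IRI therefore differed between the formats. In the 1-digit libraries, 3 members were higher than day 0 at day 1 (28.9% of all genes were, and 58.5% changed), namely Acta2 by log2 0.90 (adjusted p = 0.0122), Tagln by 2.05 and Smtn by 1.30. In the same libraries Myh11 fell by 1.21 (SE 0.404, adjusted p = 0.0200) and Mylk fell by 1.03 (SE 0.189, adjusted p = 0.000465), where 29.6% of all genes fell; for both, all 3 libraries lay below all day 0 libraries, as they did for 33.3% of all genes. The Acta2 call was lost without day 1 replicate 5 (adjusted p = 0.0811), and that of Myh11 without day 0 replicate 4 or day 1 replicate 3 or 4 (adjusted p up to 0.0763). From day 1 to day 3 the 1-digit libraries rose in 7 members (16.5% of all genes did, and 32.0% changed): Acta2 by 3.15, Tpm2 by 2.64, Lmod1 by 2.31, Tagln by 2.12, Myh11 by 1.90, Des by 1.79 and Mylk by 0.97, all log2, and Smtn fell by 0.86, where 15.5% of all genes fell. Without day 3 replicate 4 the calls of Myh11, Smtn and Mylk were lost (adjusted p = 0.187, 0.164 and 0.0635).

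In the 3-digit libraries, 7 members were already higher at day 1 (22.6% of all genes were, and 41.6% changed), with Acta2 by log2 2.72, Tagln by 3.23, Actg2 by 3.69, Tpm2 by 1.98, Des by 1.47, Lmod1 by 1.12 and Smtn by 0.79. The Actg2 value rested on day 1 replicate 2, the library highest in urothelium genes: it overlapped with day 0, and without that library it was 1.56 (adjusted p = 0.369). Lmod1 and Smtn were lost without day 1 replicate 1 (adjusted p = 0.127 and 0.135). From day 1 to day 3 none rose, also at an unadjusted p under 0.05, and 3 fell (6.41% of all genes did, and 13.9% changed): Tagln by 1.15 (adjusted p = 0.0166), Des by 0.69 (adjusted p = 0.0387) and Actg2 by 3.53 (adjusted p = 0.0472). Tagln was lost without day 1 replicate 1 or day 3 replicate 3 (adjusted p up to 0.173). Des was lost in a fit of the 3-digit and day 0 libraries alone (adjusted p = 0.0635) and when any 1 of 7 libraries was left out (up to 0.267). Actg2 was lost when any 1 of 11 libraries was left out, and without day 1 replicate 2 it was -1.40 (adjusted p = 0.547). Against day 0, Acta2, Tagln, Des and Tpm2 were higher at day 3 in both formats (28.6% of all genes were in the 1-digit and 19.1% in the 3-digit libraries, and 53.7% and 32.4% changed), by 4.05 and 2.24 for Acta2, 4.17 and 2.08 for Tagln, 1.60 and 0.78 for Des and 2.76 and 1.47 for Tpm2 in 1-digit and 3-digit libraries. All day 0 libraries have 1-digit numbers, so for the 3-digit libraries the format and the injury cannot be told apart.

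Urothelium genes moved with several members. At day 1 the summed urothelium level was 5.38 to 10.4 CPM with 1-digit and 21.0 and 124.8 CPM with 3-digit numbers, where 4 of the 8 urothelium genes were higher (18.6% of all genes were). At day 3 it was 7.27 and 53.7 CPM in the 1-digit and 3.94 to 19.7 in the 3-digit libraries, where none of the 8 passed (18.5% of all genes did). Over the 14 libraries, r with the log2 of this sum was 0.78 for Actg2, 0.77 for Cnn1 and 0.73 for Myh11, as against 0.31 for Acta2, 0.26 for Lmod1 and 0.22 for Tagln. Without the highest library of each day, Acta2, Tagln and Smtn still rose at day 1, and Acta2, Tagln and Tpm2 at day 3. Of 8 skeletal muscle genes, 7 failed the filter, and their sum was 0.323 to 1.53 CPM in all libraries. The part of urothelium-bearing tissue in the levels of Myh11, Cnn1 and Actg2 was not tested.

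**Figure D5:**
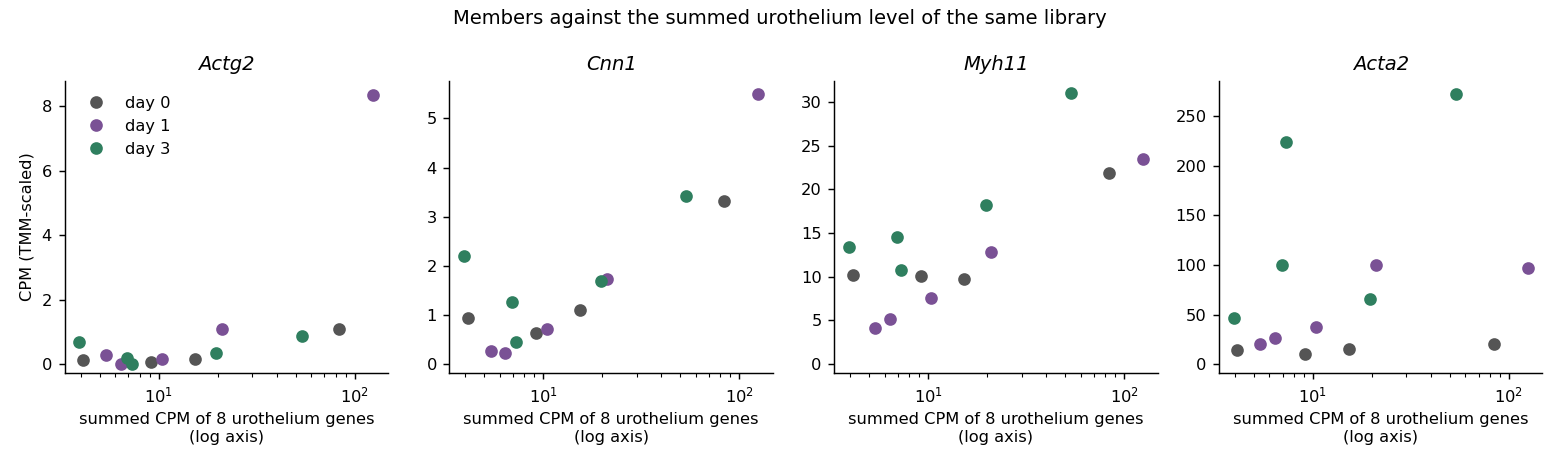
TMM-scaled CPM of Actg2, Cnn1, Myh11 and Acta2 in each library against the summed CPM of 8 urothelium genes (log axis), coloured by day. The libraries above 50 CPM on the horizontal axis hold the highest Myh11 and Cnn1 of their day, and those of day 0 and day 3 also the highest Acta2 (20.4 and 272.6 CPM).

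Of 10 other genes of mature smooth muscle that passed the filter, 1 rose at day 1 and 1 at day 3, where 23.3% and 19.5% of all genes rose, in each case Ptgir (the prostacyclin receptor), from 0.637 ± 0.424 CPM (SD, n = 4) to 1.52 ± 0.345 and 1.74 ± 0.299 (n = 5). The median change of the list was log2 -0.09 at day 1 and 0.48 at day 3, beside 0.007 and 0.054 over all genes. Rbpms2 (143 ± 8.75 CPM at day 0), Itga8, Mrvi1 and Ppp1r14a were the most abundant of the list. Rbpms2 and Itga8 are also used by other kidney cells. Mrvi1 stood at 4.15 ± 0.593, 2.65 ± 1.63 and 4.54 ± 1.06 CPM at days 0, 1 and 3. The formats differed here too. In the 1-digit libraries 2 of the list rose and 4 fell at day 1 (Ppp1r14a by log2 -2.64, Pln by -1.69, Ldb3 by -1.57 and Mrvi1 by -1.50), where 28.9% of all genes rose and 29.6% fell. At day 3 in these libraries 4 rose and 1 fell, where 28.6% of all genes rose and 53.7% changed. Between formats at day 1, 5 were higher and 1 was lower in the 3-digit libraries, where 18.6% of all genes were higher and 35.0% differed. Over all libraries Kcnmb1, Synpo2 and Ldb3 gave log2 1.44, 1.00 and 0.50 at day 3, and Pln and Ntrk3 gave -0.44 and -0.57, with adjusted p of 0.0681 or more in edgeR. Myocd, the coactivator that drives the smooth muscle programme, and Casq2 did not pass the filter.

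Partners of the contractile apparatus are used by many cell types. Of 13 tested, 9 were higher at day 1 and 11 at day 3, where 23.3% and 19.5% of all genes were, with median changes of log2 0.77 and 0.99. Tpm4, a cytoskeletal tropomyosin, went from 75.8 ± 6.01 CPM to 404 ± 52.9 at day 1 and 342 ± 124 at day 3. Myh9, a non-muscle myosin heavy chain, went from 269 ± 1.78 to 686 ± 76.6 and 535 ± 69.7 CPM, Flna (filamin A) from 60.1 ± 7.56 to 222 ± 93.2 and 328 ± 96.9, and Myl6, a myosin light chain, from 585 ± 30.9 to 1000.2 ± 77.7 and 777 ± 146. Myl9, the regulatory light chain shared with smooth muscle, gave log2 0.09 at day 1 (adjusted p = 0.879) and rose by 1.19 at day 3 (adjusted p = 0.0394, edgeR). The formats went opposite ways for Myl9 at day 1, at -0.76 with 1-digit numbers (adjusted p = 0.00195) and 0.81 with 3-digit numbers (adjusted p = 0.00334). In the 1-digit libraries of day 1, 8 of the 13 rose and 3 fell (Myl9, Lpp and Myh10), where 28.9% of all genes rose and 29.6% fell.

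Of 14 genes that control contraction, 7 rose and 1 fell at day 1 and 4 rose and 1 fell at day 3, beside 42.1% and 33.3% of all genes that changed. Calm2, one of the calmodulin genes, rose on both days (log2 1.02 and 0.60) and Rhoa (a GTPase that sustains contraction) at day 1 (0.48), while Calm3 gave -0.27 and 0.09. Srf, the serum response factor, rose by 0.60 at day 1 (adjusted p = 0.0470, edgeR), as did its coactivators Mkl1 and Mkl2 (0.69 and 0.40). Ppp1r12b, a myosin phosphatase subunit, fell by 1.04 at day 1.

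Markers of other cells that can use Acta2 moved too. Of 12 fibroblast and myofibroblast genes, 3 rose at day 1 and 8 at day 3 (23.3% and 19.5% of all genes rose), with a median of log2 0.86 and 2.28; their summed level was 165 to 237 CPM at day 0, 244 to 645 at day 1 and 882 to 1513 at day 3. Col3a1 (type III collagen) went from 20.9 ± 4.71 to 63.5 ± 60.5 and 324 ± 155 CPM, Vim (vimentin) from 31.0 ± 3.19 to 103 ± 26.0 and 195 ± 45.7, Col1a2 from 32.2 ± 4.65 to 47.9 ± 33.0 and 227 ± 82.1, and Tnc (tenascin C) from 6.49 ± 5.22 to 76.9 ± 39.3 and 101 ± 99.9. Of 8 pericyte genes, 2 rose and 2 fell at day 1, and 4 rose and 1 fell at day 3, beside 42.1% and 33.3% of all genes that changed. Rgs5, a pericyte marker, was lower at day 1 (12.3 ± 1.37 to 6.31 ± 2.17 CPM) and Abcc9 on both days (16.5 ± 4.29 to 6.74 ± 1.73 and 7.05 ± 2.86 CPM). Pdgfrb, the receptor that marks pericytes and fibroblasts, went from 23.0 ± 2.68 to 66.1 ± 16.1 and 99.6 ± 55.8 CPM, Mcam from 9.995 ± 0.475 to 52.7 ± 8.85 and 46.6 ± 35.7, whereas Cspg4 stood at 23.9 ± 4.47, 20.8 ± 4.13 and 24.0 ± 5.75. The summed pericyte level at day 3 was 263 and 376 CPM in the 1-digit and 131 to 186 in the 3-digit libraries, and Acta2 too was higher in both 1-digit libraries, while the fibroblast sum overlapped (926 and 1513 against 882 to 1391). The endothelial sum (329 and 546 against 137 to 235 CPM) and that of the contractile partners (3269 and 3671 against 2518 to 2678 CPM) were likewise higher in both 1-digit libraries, and the macrophage sum was lower (119 and 123 against 244 to 409 CPM). By gene, 3 pericyte genes (Pdgfrb, Kcnj8 and Mcam) and 3 fibroblast genes (Pdgfra, Tnc and Fap) were lower in the 3-digit libraries of day 3. In each list 1 gene was higher, Cspg4 and Thy1 (8.22% of all genes were lower and 18.5% differed). At day 1 the fibroblast sum was 244 to 388 CPM in the 1-digit and 546 and 645 in the 3-digit libraries, where 5 of the 12 genes were higher (18.6% of all genes were), and the macrophage sum was 69.0 to 76.4 against 108 and 116 CPM. Of 6 macrophage genes, 2 rose and 1 fell at day 1 and 3 rose and 1 fell at day 3, beside 42.1% and 33.3% of all genes that changed. Of 6 endothelial genes 1 rose and 1 fell at day 1 and none passed at day 3 over all libraries, while 4 rose in the 1-digit libraries of day 3 (28.6% of all genes did) and none passed in the 3-digit ones (32.4% of all genes changed). Whether these cells contributed to the Acta2 level was not tested.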

How the data were processed

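The authors deposited 1 table of raw read counts per gene for each library, made with STAR; the submitters' processing notes also name Trimmomatic and the mm10 build, with no versions; which annotation they used is not given in the sources used here. Each table has counts without regard to strand and for each strand. Since 98.5 to 98.7% of stranded counts lay on the opposite strand, that column was used. The 4 entries naming no gene (29.0 to 38.3% of reads) were left out.

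Counts were filtered by expression (14300 of 24411 genes kept), scaled by TMM and tested with edgeR 4.0.16 in R 4.3.3 (quasi-likelihood test, Benjamini-Hochberg adjustment over all genes tested, threshold 0.05), with a term for each day or, for number format, for each day and format. Differences of log2 CPM (prior count 2) were tested by exact two-sided permutation over libraries. On simulated counts, 194 of 200 changed genes were recovered for day 1 against day 0 among 14162 genes, with 6 false calls, and 194 of 200 for day 3 against day 1, with 11. These counts were drawn with the spread within day and format and with no difference by format. All changed genes were given the same size of change and had counts above a floor. Recovery in the real libraries was therefore not measured. Alternatives were DESeq2 1.42.0, other scaling, filters and strand columns, each library left out, each number format alone, a replicate block, and, chosen after seeing the data, leaving out the library of each day highest in urothelium genes or each library within the formats. In fits by format, leaving out a 3-digit library of day 1 or a 1-digit library of day 3 left 1 library in that group. It was taken to vary like the others.

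The members and gene lists were chosen with earlier results of these data known. All 10 members are named. Of the other lists, the genes of highest mean CPM, up to 4, and all mature smooth muscle genes tested are named, and for Acta2 and Myh11 the 5 genes of highest correlation; other list genes were named after their values were seen. A list gene that this rule names is not reported here. Gene positions and exon lengths are from GENCODE vM21 (GRCm38), and sequences from RefSeq (GRCm38.p6). The sum of counts over genes sets the precision of each library, and no molecular identifiers were used, so it covers counting error only.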

Additional observations from a re-analysis of the deposited data

Results flagged for a closer look

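In 1 of 30 groups of member values, 1 library stood apart from the others, where chance gives 1.5. Myh11 was at log2 CPM 4.46 in day 0 replicate 4, against 3.30 to 3.37 in the other 3 day 0 libraries. That library also had the highest urothelium sum of day 0 (83.8 CPM), and the part of that tissue in the Myh11 level was not tested.

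For 7 genes the difference between 3-digit and 1-digit libraries was not the same at day 3 as at day 1, by edgeR's test of the difference itself. The log2 values were -3.62 for Acta2, -3.27 for Tagln, -3.16 for Tpm2, -2.73 for Lmod1, -2.49 for Des, -2.15 for Myh11 and -1.25 for Mylk, all meaning that the format difference was lower at day 3. What the number format stands for is not stated, so its part in the day differences was not tested beyond the values within each format.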

How the results depend on the processing

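Of 474 values recomputed under other settings, 425 kept direction and side of the threshold and 21 changed sign; of 1288 with 1 library left out, 1197 and 24 did so. The causes were not tested. Depth limits Actg2 (0 to 184 reads per library) and Cnn1 (4 to 121).

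With number format as a term, log2 values turned to -0.79 for Cnn1 at day 1, and to -0.43 for Cnn1, -1.33 for Actg2 and -0.41 for Mylk at day 3; Mylk passed at day 1 (-0.75), and at day 3 Smtn (0.52) passed and Des (0.99) did not. With 1-digit libraries alone, 5 members changed at day 1 (61.3% of all genes did) and 8 from day 1 to day 3 (36.0%); Cnn1 gave -1.88, Des -0.16, Actg2 -1.31 and Lmod1 -0.32 at day 1, Mylk -0.05 at day 3, and Actg2 1.64 from day 1 to day 3. With 3-digit libraries alone against day 0, 7 members changed at day 1 (42.9% of all genes) and 2, Tagln and Actg2, from day 1 to day 3 (16.0%); Myh11 gave 0.49 and Mylk 0.45 at day 1, and from day 1 to day 3 Acta2 gave -0.48, Tagln -1.15, Myh11 -0.24, Cnn1 -1.08, Des -0.69, Lmod1 -0.42, Tpm2 -0.51 and Mylk -0.29. Without the 3 libraries high in urothelium genes, 3 members changed at day 3, and Cnn1 gave -0.25 at day 1.

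The shift of Acta2 against Myh11, Cnn1 and Lmod1 did not pass the exact permutation test in these subsets. Within a number format the shift could not pass, since 2 or 3 libraries against 4 allow no adjusted p under 0.05. It was 2.04, 2.37 and 1.22 at day 1 and 3.49, 4.01 and 2.15 at day 3 in 1-digit libraries, 2.24, 1.49 and 1.67 and 1.88, 1.79 and 1.52 in 3-digit libraries, and 2.08, 2.07 and 1.38 and 2.32, 2.36 and 1.73 without the urothelium-high libraries. From day 1 to day 3 in 3-digit libraries it turned to -0.36 for Myh11 and -0.15 for Lmod1.

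From day 1 to day 3, DESeq2 called 2 members (Acta2 and Smtn), and edgeR on those 2 days alone called 0, with Smtn at -0.82 (adjusted p = 0.050) and 2 at an unadjusted p under 0.05. Replicate numbers did not pair the libraries (r of same-numbered deviations -0.175 to 0.261, over 0.1 in 4 of 13 pairs); with the replicate block, 3 members changed at day 1, 3 at day 3 (without Des and Lmod1, adjusted p = 0.0725 and 0.102) and 1 from day 1 to day 3, and 5162, 4103 and 2044 genes in all against 6020, 4757 and 2276. Without TMM the median of all genes moved to 0.165 at day 3, with the same member calls.

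With 1 library left out, member calls ranged from 2 to 4 at day 1, 3 to 5 at day 3, 1 to 4 from day 1 to day 3, 6 to 10 and 3 to 5 for format at day 1 and day 3, and 5 to 9 for their difference. The Acta2 shifts ranged at day 1 from 1.98 to 2.24 (Myh11), 1.73 to 2.36 (Cnn1) and 1.24 to 1.58 (Lmod1), and at day 3 from 2.13 to 2.77, 2.05 to 3.13 and 1.62 to 2.04, with adjusted p of 0.0536 at most, without a day 0 library. Of log2 values that changed sign, Cnn1 ranged from -1.0 to 0.95 at day 1, -0.09 to 1.01 at day 3, -0.29 to 1.27 from day 1 to day 3 and -1.02 to 1.94 for format at day 3. Actg2 ranged from -0.19 to 1.76 at day 3, -2.66 to 0.10 from day 1 to day 3, -1.12 to 5.82 for format at day 3 and -6.15 to 0.78 for the format difference between days. Myh11 ranged from -0.80 to 0.10 at day 1 and -1.03 to 0.51 for format at day 3, Mylk from -0.03 to 0.22 at day 3, and Smtn from -0.59 to 0.21 for format at day 3 and -0.08 to 0.73 for the format difference.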
